A study of Mus musculus with 12 samples.

Results

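The glutathione S-transferases join the tripeptide glutathione to reactive, electrophilic compounds, which can then be exported from the cell. The family has soluble enzymes, grouped into classes such as alpha, mu and pi, and membrane-bound enzymes of the endoplasmic reticulum and mitochondria, some of which also reduce lipid peroxides or make leukotrienes. Several of its genes carry antioxidant response elements, the DNA sites that the activator Nrf2 and the repressor Bach1 both bind as partners of small Maf proteins.

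Of the family, 10 genes were followed here in C2C12 cells, a myoblast line from C3H mouse muscle: the alpha class genes Gsta2, Gsta3 and Gsta4, the mu class genes Gstm1, Gstm2 and Gstm5, the pi class gene Gstp1, and the membrane-bound Mgst1, Mgst2 and Mgst3. All probes that the deposited table assigns to these symbols were taken, which gave 16 of the 56605 probes of the array for 10 of its 27306 gene symbols. A probe was tested where its signal was well above background, by the scanner's flag, on all 3 arrays of at least 1 condition. This held for 13 of the 16 probes, from 9 of the 10 genes, and 12 of the 16 were well above background on all 12 arrays. The genes were selected on the same arrays, by their signal with siBach1 and siControl at both days, so differences between siBach1 and siControl cells are given for them as descriptions, with standard errors and no p-value.

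The study transfected C2C12 cells with a control siRNA (siControl) or an siRNA against Bach1 (siBach1) and, at confluence, replaced the medium with one holding 2% horse serum, in which the myoblasts fuse into myotubes. RNA was taken before this change (day 0) and at day 2. The 4 conditions were siControl day 0, siBach1 day 0, siControl day 2 and siBach1 day 2, each with 3 one-colour arrays, so every cell had received an siRNA and cells at day 2 had also spent longer with it. The study's methods name a single siRNA against Bach1 for the arrays, and what this oligonucleotide may do beyond lowering Bach1 cannot be told apart from the loss of Bach1. The experiment was done in triplicate, but the labels do not say that replicates were separate cultures, so the errors and p-values measure the spread between these arrays, which may be technical.

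All levels below are log2 signals relative to the 75th percentile of the array, so a level of 0 is a probe at that percentile. Differences are on the same log2 scale, with the standard error (SE) of a limma fit to all 12 arrays. Levels of different probes were not set against each other, though those of a marker list were summed. The silenced gene itself was lower in siBach1 cells: at day 0 the Bach1 probe read 1.69 ± 0.12 with siControl and -0.09 ± 0.23 with siBach1 (SD over 3 arrays), and at day 2 it read 2.56 ± 0.01 and 0.59 ± 0.05, which left 29.2% and 25.6% of the control signal (limma adjusted p = 1.2e-05 and 1.4e-05). Hmox1, the heme oxygenase gene long known as a target of Bach1, rose by 3.30 at day 0 and 3.12 at day 2 with silencing (SE 0.14, limma adjusted p = 1.4e-06 and 2.8e-06). Between replicates the arrays correlated at 0.986 to 0.995 over all tested probes. The first slide carried replicates 1 and 2 of every condition and the second carried replicate 3. Each condition kept its own column of both slides, so a column effect cannot be told apart from the condition.

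The identity of the cells was checked with marker genes. All 5 myotube genes (Myog, Myh3, Acta1, Ckm, Tnnt3) were above background on all 12 arrays and rose from day 0 to day 2 in siControl cells, by 4.52 to 6.75 over their 8 probes, and 3 of 4 myoblast genes were above background throughout. The hepatocyte markers Alb, Apoa1 and Ttr, named here because liver is rich in these enzymes, were above background on at most 1 array each. Of the macrophage markers, Adgre1 was above background on no array, while a Cd68 probe and 1 of 7 Ptprc probes were on all 12. A probe each of the adipocyte marker Pparg and the osteoblast markers Alpl and Sp7 was also above background on all 12. The brightest probes of Plin1, Fabp4 and Bglap were so on 10, 6 and 8 arrays. Of the endothelial markers, Pecam1 was above background on 11 arrays and Cdh5 on none, as was the adipocyte marker Adipoq.

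Short stretches of the promoters are shown for the 6 places where the 250 bases before the start of a member gene hold a site of the kind that Bach1, Nrf2 or AP-1 proteins can bind. RefSeq sequence (assembly GRCm38.p6) had such windows for 9 of the 10 genes, and none was given for Gsta4. The motifs searched, on both strands, were TGACNNNGC, the core of the antioxidant response element, TGAGTCA, an AP-1 type site, and the longer extended Maf recognition element. A TGACTCA that is followed by GC would meet the first and second at once. Among the 32851 promoter windows of the RefSeq table, 10.2% held TGACNNNGC, 4.46% TGAGTCA and 1.1% the extended element. Mgst2, Gstm5 and Gstp1 held TGAGTCA, here in capitals in its orientation on the gene's strand, at chr3:51661110-51661150 (plus strand), chr3:107895661-107895701 (plus strand) and chr19:4037963-4038003 (minus strand), 52, 176 and 74 bases before the start.
Mgst2: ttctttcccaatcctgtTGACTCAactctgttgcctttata
Gstm5: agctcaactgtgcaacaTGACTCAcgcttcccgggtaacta
Gstp1: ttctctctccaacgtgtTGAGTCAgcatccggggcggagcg

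Gsta3, Gstm5 and Mgst1 held TGACNNNGC, likewise in capitals, at chr1:21240447-21240489, chr3:107895795-107895837 and chr6:138140454-138140496 (all plus strand), 121, 42 and 56 bases before the start. These are shown because the genes that hold the element in this window can then be set beside the genes that differed most.
Gsta3: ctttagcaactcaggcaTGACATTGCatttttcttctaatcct
Gstm5: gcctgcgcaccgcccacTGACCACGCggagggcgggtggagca
Mgst1: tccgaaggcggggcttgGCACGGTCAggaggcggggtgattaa

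The windows of Gsta2, Gstm1, Gstm2 and Mgst3 held none of these motifs, and the extended element was in no member's window. A match here is a description of the letters and not a measured binding site.

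Silencing of Bach1 went with a higher signal of Mgst2 at both days and of the alpha class genes Gsta2 and Gsta4 at day 2. Mgst2 was 2.61-fold higher in siBach1 than in siControl cells at day 0 and 18.8-fold higher at day 2, Gsta2 was 10.1-fold higher at day 2, and Gsta4 was 2.62-fold higher at day 2. The mu class gene Gstm1 and the membrane-bound Mgst1 were higher by smaller amounts at both days. Gstm2, Gstm5, Gstp1 and Mgst3 differed by 0.39 or less on the log2 scale at either day.

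Mgst2 encodes microsomal glutathione S-transferase 2, a membrane enzyme that can also join glutathione to leukotriene A4. Its probe (A_51_P150120) read 2.13, 2.28 and 1.91 on the siControl arrays of day 0 and 3.35, 3.67 and 3.45 on the siBach1 arrays of that day. At day 2 it read 0.30, 0.71 and -0.41 with siControl and 4.38, 4.65 and 4.25 with siBach1. The readings with siBach1 were thus all higher than those with siControl, and the siBach1 arrays of day 2 were the highest of all 12 whereas the siControl arrays of day 2 were the lowest. The difference between the siRNAs was 1.39 (SE 0.24) at day 0 and 4.23 (SE 0.24) at day 2. On the slide with replicates 1 and 2 these were 1.31 and 4.02, and on the slide with replicate 3 they were 1.54 and 4.65.

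Gsta2 is an alpha class enzyme of the cytosol, best known from liver. Its probe (A_55_P2170454) read 4.13, 4.34 and 3.78 with siControl and 3.81, 4.37 and 3.79 with siBach1 at day 0. At day 2 it read -2.28, -2.01 and -2.38 with siControl and 0.85, 1.42 and 1.08 with siBach1. The arrays of both siRNAs overlapped at day 0, and at day 2 those of siBach1 were all higher, yet still below every array of day 0. The difference between the siRNAs was -0.09 (SE 0.21) at day 0 and 3.34 (SE 0.21) at day 2, the latter 3.28 and 3.45 within the slides. With another background correction, normexp, the difference at day 2 was 2.61.

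Gsta4, the alpha class enzyme known for its activity on the lipid peroxidation product hydroxynonenal, followed the same course with a smaller range. Its probe (A_51_P112223) read 4.58, 4.73 and 4.44 with siControl and 4.82, 5.15 and 4.94 with siBach1 at day 0. At day 2 it read 1.37, 1.57 and 1.40 with siControl and 2.67, 2.80 and 3.03 with siBach1. The siBach1 arrays were above the siControl arrays at both days, by 0.39 (SE 0.13) at day 0 and 1.39 (SE 0.13) at day 2. The remaining alpha class gene, Gsta3, had 3 probes, and no condition had any of them well above background on every array: A_51_P503625 was so on 0, A_55_P1961423 on 4 and A_55_P2717678 on 1 of the 12 arrays. Its level is therefore not compared between conditions, although its promoter window holds a TGACNNNGC.

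**Figure D1:**
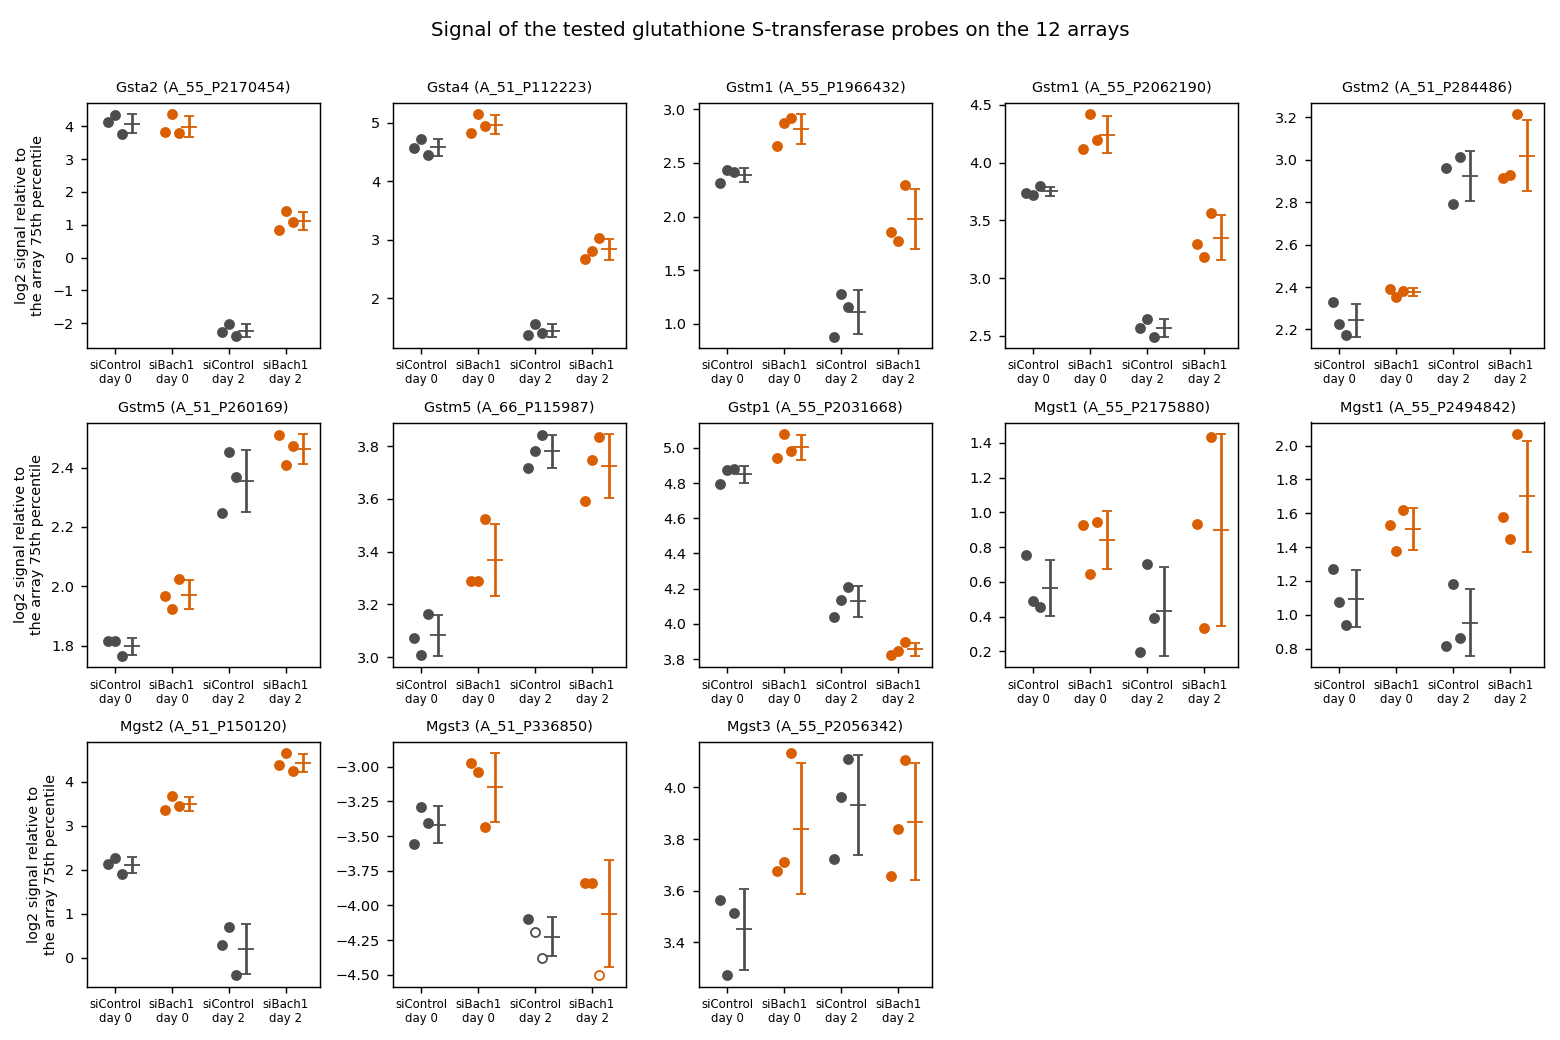
Signal of the 13 tested probes on each array (log2, relative to the array's 75th percentile; each panel has its own vertical axis). Points are single arrays, grey for siControl and orange for siBach1, open where the probe was not well above background, with the mean and SD of 3 arrays beside them. The Mgst2 points of siBach1 cells lie between 3.35 and 4.65, above all siControl points, and the Gsta2 points drop below 0 only in siControl cells at day 2.

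Gstm1, a mu class enzyme, was measured by 2 probes that gave like differences. The probe A_55_P2062190 read 3.74, 3.72 and 3.79 with siControl and 4.12, 4.42 and 4.20 with siBach1 at day 0, and 2.57, 2.64 and 2.49 with siControl and 3.30, 3.19 and 3.56 with siBach1 at day 2. The siBach1 arrays were above the siControl arrays at each day, and this also held for the other probe, A_55_P1966432. The differences were 0.49 (SE 0.11) and 0.43 (SE 0.15) at day 0 and 0.78 (SE 0.11) and 0.87 (SE 0.15) at day 2. All of these were under a 2-fold difference, and at day 2 they were larger on the slide with replicate 3 (1.07 and 1.14) than on the other (0.64 and 0.73).

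The other mu class genes and the pi class gene differed little between the siRNAs. Gstm2 (A_51_P284486) differed by 0.13 (SE 0.10) at day 0 and 0.10 (SE 0.10) at day 2, and the Gstm5 probes by 0.17 and 0.29 at day 0 and by 0.11 and -0.06 at day 2 (SE 0.08 and 0.10). For these 3 probes the siBach1 arrays were all above the siControl arrays at day 0 and overlapped with them at day 2. Of all tested probes, 21.9% were likewise higher without overlap at day 0, and the median difference over all of them was 0.09. Gstp1 (A_55_P2031668), whose product also acts as an inhibitor of JNK kinases, read 4.79, 4.87 and 4.88 with siControl and 4.94, 5.08 and 4.98 with siBach1 at day 0. At day 2 it read 4.04, 4.14 and 4.21 with siControl and 3.82, 3.85 and 3.89 with siBach1. The siBach1 arrays of Gstp1 were thus all higher at day 0, by 0.15 (SE 0.08), and all lower at day 2, with a difference of -0.27 (SE 0.08). At day 2, 17.1% of all tested probes were lower without overlap.

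Mgst1, a membrane enzyme that also reduces lipid hydroperoxides, had 2 probes. The probe A_55_P2494842 read 1.27, 1.08 and 0.94 with siControl and 1.53, 1.37 and 1.62 with siBach1 at day 0, and 0.82, 1.18 and 0.86 with siControl and 1.58, 1.45 and 2.07 with siBach1 at day 2. Its siBach1 arrays were above its siControl arrays at both days, by 0.41 and 0.75 (SE 0.17), whereas the arrays of A_55_P2175880 overlapped at both days (0.27 and 0.47, SE 0.24). Replicate 3 of siBach1 day 2 was the highest array of both probes. Without it, the differences at day 2 were 0.56 and 0.20.

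Mgst3, another membrane enzyme with peroxidase activity, was above background on all 12 arrays with A_55_P2056342, which differed by 0.39 at day 0 and -0.06 at day 2 (SE 0.16). Its other probe, A_51_P336850, was well above background on 9 arrays and differed by 0.27 and 0.16 (SE 0.19).

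**Figure D2:**
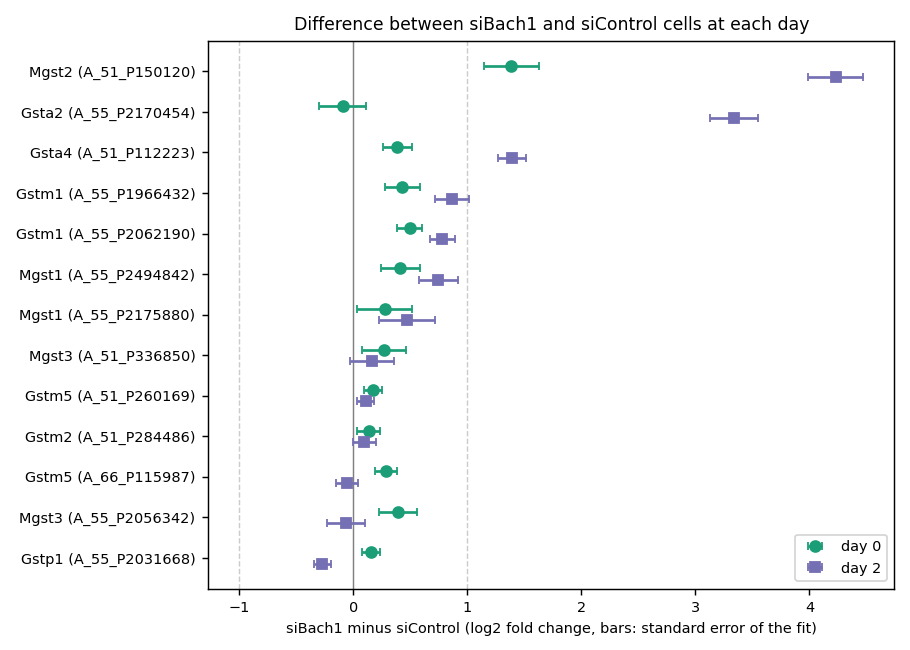
Difference between siBach1 and siControl cells for each of the 13 tested probes at day 0 (green circles) and day 2 (violet squares), in log2 fold change with the standard error of the fit. The solid line marks no difference and the dashed lines a 2-fold difference. At day 2 Mgst2, Gsta2 and Gsta4 lie beyond the 2-fold line at 4.23, 3.34 and 1.39, and at day 0 only Mgst2 does, at 1.39.

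Counted over all members, 1 of 13 tested probes (Mgst2) was higher with silencing at day 0 at the threshold used across the array, a Benjamini-Hochberg adjusted limma p under 0.05 with a fold change of at least 2, where 0.809% of all 29664 tested probes were. At day 2 it was 3 of 13 (Mgst2, Gsta2 and Gsta4), where 1.52% of all tested probes were. At that day the probes nearest the 2-fold line were Gsta4 just inside at 1.39 and Gstm1 just outside at 0.87. The siBach1 arrays lay above the siControl arrays without overlap for 10 of 13 member probes at day 0 (21.9% of all tested probes) and for 6 of 13 at day 2 (15.7%), and below them for 1, Gstp1, at day 2 (17.1%). The median difference of the 13 probes was 0.29 at day 0 and 0.47 at day 2, beside 0.09 and -0.01 over all tested probes. These counts describe genes that were picked for this contrast.

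The difference between siRNAs was itself larger at day 2 than at day 0 by 3.43 (SE 0.29) for Gsta2, 2.84 (SE 0.34) for Mgst2 and 1.00 (SE 0.18) for Gsta4. At the same threshold these were 3 of 13 member probes, where 0.981% of all tested probes were on the higher side, again a description of selected genes. Gsta4 stood at the edge of the threshold: it dropped below a 2-fold difference when any of 6 of the 12 arrays was left out. Gsta2 and Mgst2 stayed beyond the threshold without any single array, but leaving out arrays does not undo the selection of the genes on these values. For the remaining 10 probes the difference between days ranged from -0.45 (Mgst3, A_55_P2056342) to 0.44 (Gstm1, A_55_P1966432).

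The course of the family as myoblasts differentiate was read in the siControl cells. Their arrays also entered the silencing differences by which the genes were selected, so these changes too are given as descriptions, with no p-value. From day 0 to day 2 Gsta2, Gsta4, Gstm1 and Mgst2 were lower by 2-fold or more, Gstp1 was lower by less, and Gstm2 and Gstm5 were higher by less than 2-fold. The change of Gsta2 was -6.31 on the log2 scale (SE 0.21), a 79.1-fold lower signal, and -5.52 with normexp correction. It was -3.14 (SE 0.13) for Gsta4 and -1.91 (SE 0.24) for Mgst2, which were 8.81-fold and 3.75-fold. For these 3 genes every siControl array of day 2 was below every siControl array of day 0.

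The Gstm1 probes gave -1.18 (SE 0.11) and -1.28 (SE 0.15), and Gstp1 gave -0.72 (SE 0.08). Gstm2 was higher at day 2 by 0.68 (SE 0.10) and the Gstm5 probes by 0.56 (SE 0.08) and 0.70 (SE 0.10). As for Gsta2, Gsta4 and Mgst2, the arrays of the days did not overlap for any of these. Changes between the days were common on the array. Of all tested probes, 28.7% were lower and 24.6% higher at a limma adjusted p under 0.05. The mu class genes lay on opposite sides of 0. Both Mgst1 probes gave -0.14 with overlapping arrays, a difference smaller than its standard errors of 0.24 and 0.17.

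The Mgst3 probes disagreed. A_55_P2056342 gave 0.48 (SE 0.16). A_51_P336850 had entered the comparison through its day 0 arrays and was above background on 1 of the 3 siControl arrays of day 2, so its difference of -0.81 (SE 0.19) was measured close to background, and with normexp correction it was 0.0070. At an adjusted p under 0.05, 7 of 13 member probes were lower and 4 higher at day 2, where 28.7% of all tested probes were lower and 24.6% higher. With a 2-fold limit 5 of 13 were lower, where 9.46% of all tested probes were. The median over the 13 probes was -0.72, beside 0.00 over all tested probes. Like the counts above, these describe selected genes.

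**Figure D3:**
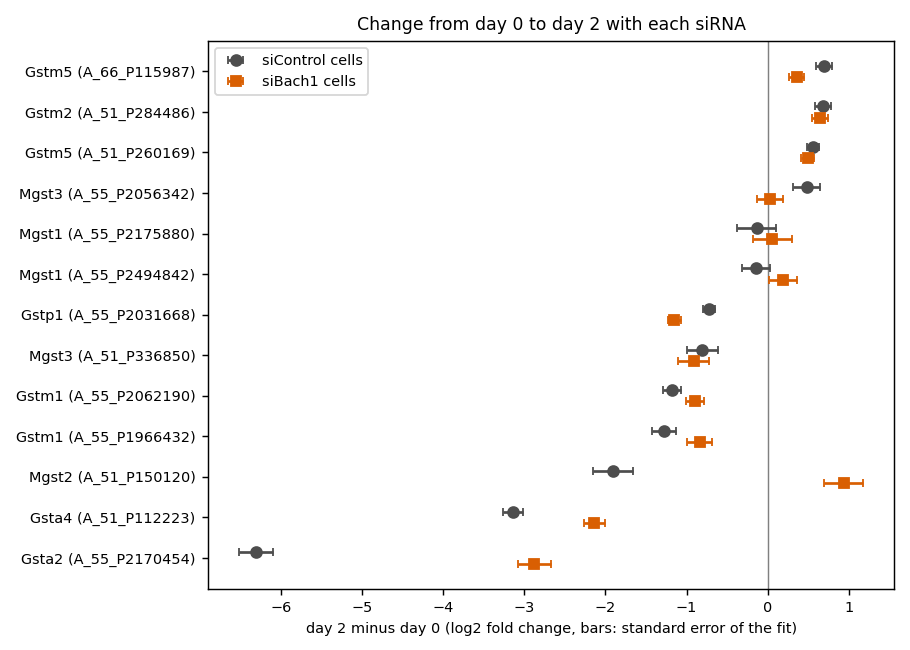
Change from day 0 to day 2 for the 13 tested probes in siControl cells (grey circles) and in siBach1 cells (orange squares), in log2 fold change with the standard error of the fit. Mgst2 lies on opposite sides of 0 with the siRNAs (-1.91 and 0.94), and Gsta2 and Gsta4 lie below 0 with both, nearer to 0 with siBach1.

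Set side by side with the siBach1 cells, whose day course shares the arrays of the silencing differences, the values of each gene were as follows. Mgst2 was higher at day 2 than at day 0 in siBach1 cells by 0.94 (SE 0.24), whereas the change in siControl cells was -1.91. The change was -2.87 (SE 0.21) for Gsta2 and -2.14 (SE 0.13) for Gsta4, so that the siBach1 cells of day 2 still stood below day 0 for both. The Gstm1 probes gave -0.84 and -0.89, and Gstp1 gave -1.15 (SE 0.08), next to -0.72 in siControl cells. Gstm2 and Gstm5 were higher at day 2 with either siRNA, by 0.36 to 0.64 with siBach1.

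Markers of differentiation were also compared between the siRNAs. At day 2 all 8 probes of the 5 myotube genes were lower in siBach1 than in siControl cells, with differences of -0.98 to -0.24. Only 1 of the 8, Myog, passed the test (fell by 0.98, SE 0.21, limma adjusted p = 0.016). Of all tested probes, 6.26% fell at a limma adjusted p under 0.05 at that day. The summed level of the myotube list, on the linear scale relative to the 75th percentile, was 1457 to 1603 on the siControl and 973 to 1197 on the siBach1 arrays of day 2, and 33.1 to 57.1 at day 0 with either siRNA. This sum runs over all 8 probes, so bright probes and genes with several probes weigh most. Gsta2, Gsta4, Gstm1 and Mgst2, which were lower at day 2 than at day 0 in siControl cells, read higher in these siBach1 cells. Gstp1, also lower at day 2 in siControl cells (-0.72), read lower still in siBach1 cells of day 2 (-0.27). Gstm2 and Gstm5, higher at day 2 in siControl cells, gave 0.10, and 0.11 and -0.06, between the siRNAs at day 2. The Mgst3 probe that was also higher, A_55_P2056342, gave -0.06. At day 0 Mgst2 differed between the siRNAs by 1.39. No myotube probe passed the test at day 0, and 7 of the 8 were below 0 (-0.40 to 0.11). Of the 4 tested myoblast probes, 1 (Cdh15) passed at day 0, where it rose by 0.45 (limma adjusted p = 0.0051). At day 2, 1 (Myod1) passed, and it fell by 0.48 (limma adjusted p = 0.036). Of the osteoblast markers, a Bglap probe that was well above background on 8 arrays rose with silencing at day 2 by 1.90 (limma adjusted p = 0.0057). The tested probes of Alpl and Sp7 gave 0.07 and 0.05 (limma adjusted p = 0.95 and 0.94). The summed level of the osteoblast list at day 2 was 0.923 to 1.60 on the siControl and 1.23 to 1.95 on the siBach1 arrays. It adds 7 probes, of which an Sp7 probe was the brightest. The part of the extent of differentiation in the differences of any of these genes was not tested. In bulk RNA, fewer cells of a type and less RNA per cell cannot be told apart.

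The rest of the family was looked at with a list of 23 further genes, of which 19 had a probe and 17 a tested one (20 probes). With silencing at day 0, 2 of these probes rose and 3 fell at a limma adjusted p under 0.05 (8.8% and 8.32% of all tested probes), and at day 2, 4 rose and 4 fell (5.75% and 6.26%). The list's median difference was 0.05 at day 0 and -0.03 at day 2. Among them Gstt1, a theta class enzyme, rose by 0.87 (SE 0.18, limma adjusted p = 0.0077) at day 0 and by 1.26 (SE 0.18, limma adjusted p = 0.0021) at day 2, and over differentiation in siControl cells it rose by 2.13. The mu class genes Gstm3, Gstm4 and Gstm6 rose at day 2 by 0.74, 0.70 and 0.51 (limma adjusted p = 0.015, 0.038 and 0.036), close to the amounts by which Gstm1 differed at that day. At day 0 they gave 0.46, 0.54 and 0.50 (limma adjusted p = 0.074, 0.079 and 0.031), so Gstm6 passed at both days. Their differences did not pass a test of change between the days (limma adjusted p = 0.53, 0.8 and 0.98).

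Other genes of this list fell. Gstk1, the mitochondrial and peroxisomal kappa class enzyme, fell by 0.87 at day 0 (SE 0.27, limma adjusted p = 0.047) and was at least 2.31-fold lower at day 2, where it was well above background on none of the siBach1 arrays (limma adjusted p = 0.001). Alox5ap, a membrane protein of leukotriene synthesis related to the Mgst enzymes, fell by 0.67 and 0.74 on its probes at day 0 and by 0.72 on 1 probe at day 2 (limma adjusted p = 0.027, 0.041 and 0.027). Gsto2 and Gstt3 fell at day 2 by 0.69 and 0.42 (limma adjusted p = 0.0082 and 0.041). Gstp2, a close copy of Gstp1, gave 0.15 at day 0 and -0.29 at day 2 (limma adjusted p = 0.32 and 0.084). Because the files hold no probe sequences, how far the probes of near-identical relatives such as Gstp1 and Gstp2 share signal was not tested.

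Genes that make, recycle and export glutathione formed a second list, of 22 genes with 27 tested probes from 18 genes. At a limma adjusted p under 0.05, 2 probes (7.41%) rose and 2 (7.41%) fell with silencing at day 0, where 8.8% and 8.32% of all tested probes did. At day 2, 3 probes (11.1%) rose and 1 (3.7%) fell, where 5.75% and 6.26% of all tested probes did. Gclm, the modifier subunit of the enzyme that makes the first bond of glutathione, rose by 0.79 (SE 0.11, limma adjusted p = 0.00089) at day 0 and by 1.18 (SE 0.11, limma adjusted p = 0.00022) at day 2. The catalytic subunit Gclc rose by 0.63 at day 2 (SE 0.09, limma adjusted p = 0.0028) and gave 0.24 at day 0 (limma adjusted p = 0.11). Gsr, which returns oxidised glutathione to its reduced form, fell by 0.70 at day 0 and 0.41 at day 2 (limma adjusted p = 0.0021 and 0.041). Anpep, a peptidase that acts on glutathione breakdown products, rose by 0.72 at day 2 (limma adjusted p = 0.0033), Oplah rose by 0.55 at day 0 (limma adjusted p = 0.0089), and 1 of 6 probes of the exporter Abcc5 fell by 0.65 at day 0 (limma adjusted p = 0.027).

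**Figure D4:**
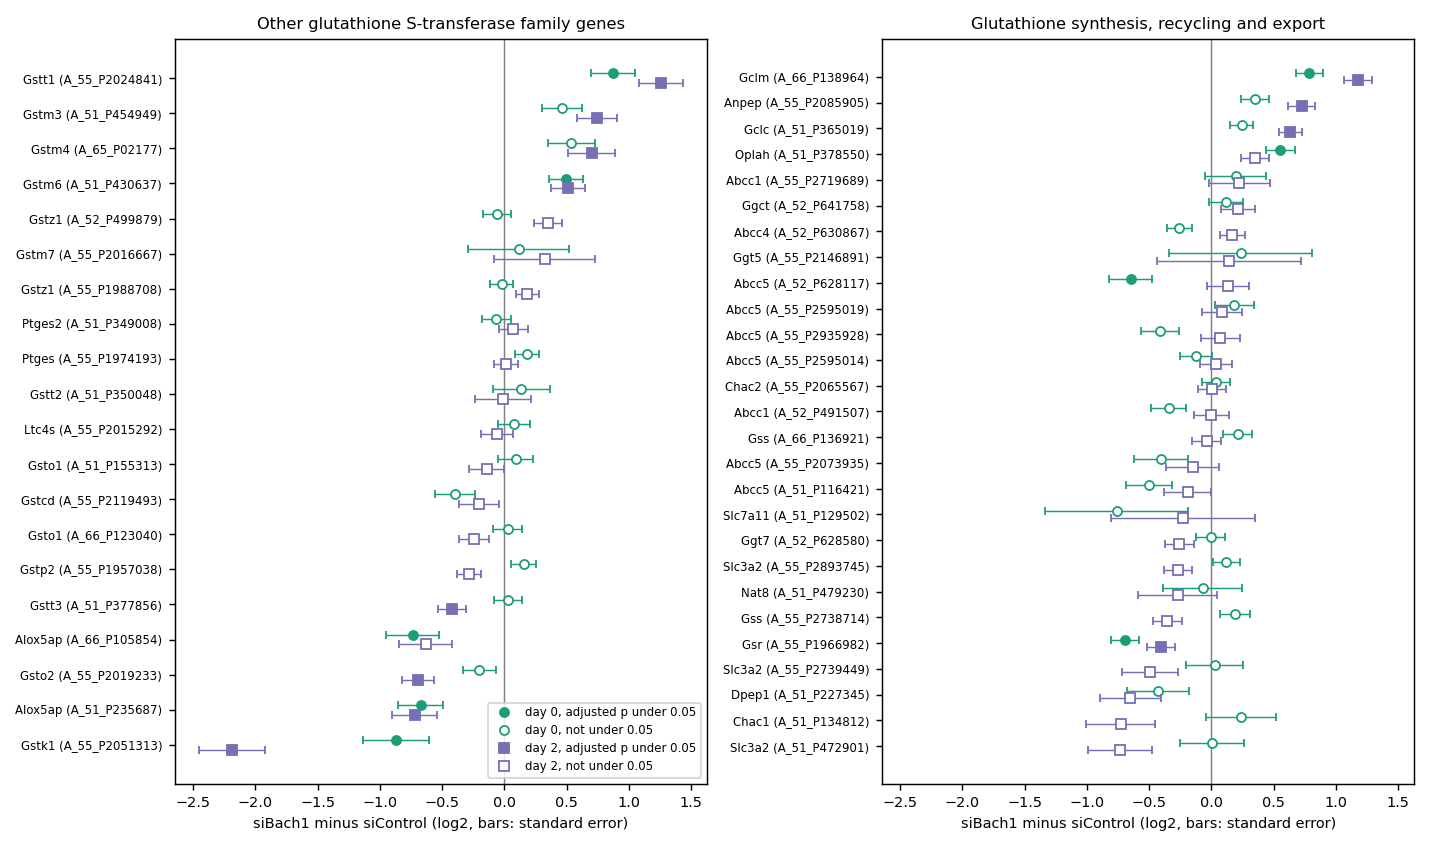
Difference between siBach1 and siControl cells (log2, with the standard error) at day 0 (green circles) and day 2 (violet squares) for 20 tested probes of other family genes on the left and 27 of glutathione synthesis, recycling and export on the right. Filled symbols passed a limma adjusted p under 0.05. Gstt1 and Gclm lie at 1.26 and 1.18 at day 2. The lowest point, Gstk1 at day 2, is the fitted difference of -2.19, from siBach1 arrays of which none was well above background. Its fall is known only to be at least 2.31-fold.

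The genes whose pattern over the 12 arrays was most like that of Mgst2, among 25602 probes, were Ugt1a6b, Snrnp48, Hba-a1, Hba-a2 and Fam84a, with Pearson's r of 0.968, 0.967, 0.967, 0.965 and 0.9645. The alpha globin genes Hba-a1 and Hba-a2 came closest to the size of its differences, with 1.39 and 1.40 between the siRNAs at day 0 and 3.86 and 3.90 at day 2, against 1.39 and 4.23 for Mgst2. For Gsta2 they were Gm10639, Gsta4, Nebl, Wdr36 and Gnat2, with r of 0.999, 0.985, 0.982, 0.98 and 0.978. Gm10639 is a predicted gene that lies close to Gsta2 in the RefSeq table, and it differed by -0.04 at day 0 and 3.31 at day 2, next to -0.09 and 3.34 for Gsta2. Whether these probes read each other's transcripts was not tested. The correlations describe 12 arrays of 4 conditions that the points share.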

How the data were processed

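RNA of C2C12 cells was labelled with Cy3 and hybridised to Agilent SurePrint G3 Mouse GE 8x60K arrays, 62976 spots each. The deposited scanner files come from Agilent Feature Extraction (10.7.3.1 per the file headers, 9.1 in the submitters' processing notes). Their processed signal, the deposited intensity used here, had its background subtracted by that software. The authors also deposited a table of raw values and of normalized log2 values made with GeneSpring.

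Here control spots and outlier flags (76 to 110 spots an array) were left out, repeated spots averaged as log2 of the processed signal, and the array's 75th percentile subtracted. Once each probe's median over the arrays was subtracted from it, the result differed from the authors' normalized values by 0.00096 in the median and 0.254 at most. A probe was tested where well above background on all 3 arrays of a condition (29664 of 56605 probes), and 47.6% to 58.8% of probes were so per array. A single limma 3.58.1 fit (R 4.3.3, with Python 3.11 for the tables) covered the 4 conditions, without a block, and Benjamini-Hochberg adjustment ran over all tested probes. On simulated data for the difference at day 2, with 200 of 29664 probes changed, 81% of the changes of 1.5 and 100% of those of 3 (log2) were called, with 4 false calls. The simulated noise was drawn independently for each probe and array, without the deviations that real arrays of a replicate number or slide share. These rates may therefore not hold for the real arrays.

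Alternatives were quantile normalization, normexp with an offset of 50, the authors' values, no filter on dim probes or only probes above background on all arrays, a replicate or slide block, only the arrays compared, a robust prior, the methods' t-test, other thresholds and leaving out each array. Arrays with the same replicate number deviated together (correlations of 0.142 to 0.595 over 18 pairs, against -0.443 to 0.265 over 36 other pairs). These correlations also followed the slide. Replicates 1 and 2, which share the first slide, correlated positively across numbers, and the negative values were those with replicate 3. The numbers were taken to pair the samples only in the alternative with a replicate block, so the reported standard errors do not use the pairing. The members and the gene lists were chosen with earlier results of these data known. The genes named are all members, Bach1 and Hmox1, up to 5 rising and 5 falling probes a list and day at an adjusted p under 0.05, and the 5 genes most like Mgst2 and Gsta2. The array design names an older mouse build than the RefSeq promoters, so no coordinates are given for probes.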

Additional observations from a re-analysis of the deposited data

Results flagged for a closer look

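Gstp1 was higher on all siBach1 arrays at day 0 and lower on all at day 2, so that its silencing difference at day 2 minus that at day 0 was -0.43. This change between the days was not tested independently of the values that selected the gene, and no p-value is given for it. Of all tested probes, 21.9% were higher without overlap at day 0 and 17.1% lower at day 2. At day 0 Gstp1 differed by 0.15 (SE 0.08), beside a median of 0.09 over all tested probes. In the list of detoxification genes described below, 3 probes had a silencing difference that itself changed between the days by a limma adjusted p under 0.05. Akr1b8, an aldo-keto reductase, gave 0.32 at day 0 and -0.17 at day 2, a change of -0.48 (limma adjusted p = 0.029). Ugdh, which makes UDP-glucuronate, fell by 1.04 and 1.00 on its probes at day 0 and gave -0.32 and -0.27 at day 2, a change of 0.73 on each (limma adjusted p = 0.038 and 0.018).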

How the results depend on the processing

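For the members, the counts of called probes stayed within 1.5 times the reported ones under every alternative run apart from the call rule. These counts too describe genes selected on the same arrays, which no alternative undoes. With an adjusted p alone they were 2 (silencing at day 0), 7 (day 2) and 11 (siControl day 2 against day 0) in place of 1, 3 and 5. Without single arrays they were 1 to 1, 3 to 3 and 5 to 5, and 2 to 3 for the difference between days. That last count was also 2, without Gsta4, with normexp correction and with no filter on dim probes. With an adjusted p alone, counts were 5 and 8 for the other family genes at day 0 and day 2 in place of 0 and 2, 4 and 4 for the glutathione genes in place of 0 and 1, and 13 and 7 for the detoxification genes in place of 4 and 1. At an unadjusted limma p under 0.05 with no limit on fold, 8 probes of the other family genes and 10 of the glutathione genes passed at day 0, and the methods' t-test also called 0 with the fold limit. At day 2 the other family count was 1 with normexp correction or with probes above background on all 12 arrays, and with the Benjamini-Hochberg adjusted t-test of the methods it was 0 (2 unadjusted). The detoxification count of day 2 was 2 with no filter on dim probes. Leaving out single arrays gave 0 to 0 and 2 to 2 for the other family, 0 to 0 and 1 to 2 for the glutathione genes (2 without replicate 3 of siControl day 2) and 3 to 5 and 1 to 1 for the detoxification genes. The change of Mgst3 probe A_51_P336850 in siControl cells turned from -0.81 to 0.0070 with normexp correction. For the paired analysis with a replicate block, the member counts were 1, 3, 3 and 5, and the block changed no other call among the counts. No scaling moved the median over all tested probes by over 0.1.

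The number of arrays, 3 a condition, limits the precision, and slide position and condition cannot be told apart. Levels near background, as for Gsta3, the dim Mgst3 probe and Gstk1 at day 2 with siBach1, are measured close to the limit of detection.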

Other observations

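Other detoxification genes known to carry antioxidant response elements, a list of 30 genes with 39 tested probes from 27 genes, were counted in the same way. At a limma adjusted p under 0.05, 6 probes (15.4%) rose and 7 (17.9%) fell with Bach1 silencing at day 0, where 8.8% and 8.32% of all tested probes did. At day 2, 4 (10.3%) rose and 3 (7.69%) fell, where 5.75% and 6.26% of all tested probes did. Apart from Hmox1 the rises at day 0 were small: 1 of 3 probes of Akr1b10 rose by 0.34, 1 probe each of the pentose phosphate enzymes Pgd and Taldo1 by 0.33 and 0.32, and Akr1b8 by 0.32 (limma adjusted p = 0.0072, 0.025, 0.022 and 0.014). The other tested probes of Pgd and Taldo1 gave -0.12 and 0.24 (limma adjusted p = 0.82 and 0.066). At day 2, 1 probe each of Me1 and Akr1b3 rose by 0.43 and 0.41, and the same Akr1b10 probe by 0.27 (limma adjusted p = 0.042, 0.028 and 0.032). The other probes of Me1 and Akr1b3 gave 0.28 and 0.39 (limma adjusted p = 0.18 and 0.062).

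Several genes of the list were lower in siBach1 cells. At day 0 the thioredoxin reductase gene Txnrd1 fell by 1.07 and 0.77 on its probes, Ugdh by 1.04 and 1.00, and Ptgr1, a reductase of reactive aldehydes and prostaglandins, by 0.90 (limma adjusted p = 0.00024, 0.0046, 0.00026, 9.9e-05 and 0.00056). At day 2 Ptgr1 fell by 0.80, 1 probe of Txnrd1 by 0.78 and the quinone reductase gene Nqo1 by 0.73 (limma adjusted p = 0.0023, 0.0032 and 0.022). From day 0 to day 2 in siControl cells 22 of the 39 probes fell and 4 rose, where 28.7% and 24.6% of all tested probes did, and the median was -0.76, next to -0.72 for the glutathione S-transferase probes and 0.00 over all tested probes.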
